A study of Mus musculus with 6 samples.

Results

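A group of 5 genes that supply the cell's basic machinery were followed through chondrogenic induction of ATDC5 cells: the cytoskeletal genes Actb and Tuba1b, the chaperone genes Hsp90ab1 and Ppia, and the ribosomal protein gene Rpl13a. Their probes were picked by name, by a rule that uses no measured value although earlier results of these data were known, and are 5 of the 60915 probes on the array that are not controls. All 5 were among the 41838 probes kept as well above background on at least 3 of the 6 arrays. ATDC5 is a mouse line derived from a teratocarcinoma and widely used to follow the steps of cartilage formation in culture. The data comprised 3 differentiated samples, induced for 14 days with 1% ITS, and 3 undifferentiated samples. ITS brings insulin to the medium, with sodium selenite at 5 ng/ml and transferrin at 5.5 µg/ml. The insulin concentration is given as zero in the labels and could not be resolved, and how long the undifferentiated cells were cultured is not stated there. All samples were of the 1 cell line and had been maintained in medium with 5% serum. Each sample was read on 1 Agilent array with the dye Cy3, although the submitters' text also speaks of Affymetrix arrays and a biotin label. The labels do not say that the replicates were separate cultures, so p-values rest on a spread between samples that may be only technical.

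Actin filaments and microtubules give a cell its shape, and the rounding of cells with rearrangement of actin is a known part of chondrocyte differentiation. HSP90 holds kinases, steroid receptors and other client proteins in a form that can be activated. Cyclophilin A, the product of Ppia, speeds the turning of peptide bonds before proline, and ribosomal proteins build the particle that translates messenger RNA. Because almost every cell makes these products in quantity, their transcripts are commonly used as references in expression assays. Whether they keep a steady level during differentiation bears directly on that use.

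The start regions of Tuba1b, Ppia and Rpl13a are shown to give the sequence from which these transcripts start. They are the 3 members with an entry in the promoter table used, and Actb and Hsp90ab1 were not searched. They are the 250 bases before the RefSeq transcription start (build GRCm38.p6), printed 5′ to 3′ on the strand of the gene. Tuba1b is at chr15:98934391-98934640 on the minus strand, Ppia at chr11:6415617-6415866 on the plus strand and Rpl13a at chr7:45128746-45128995 on the minus strand. Capitals mark matches, on either strand, to the GC box GGGCGG, the CCAAT box CCAAT, the E-box CACGTG and the TATA box TATAAA.
Tuba1b: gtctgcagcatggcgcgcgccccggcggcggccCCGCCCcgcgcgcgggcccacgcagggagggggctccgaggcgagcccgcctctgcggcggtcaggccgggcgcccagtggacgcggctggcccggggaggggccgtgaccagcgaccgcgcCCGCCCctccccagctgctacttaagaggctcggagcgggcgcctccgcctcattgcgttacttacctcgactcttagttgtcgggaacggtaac
Ppia: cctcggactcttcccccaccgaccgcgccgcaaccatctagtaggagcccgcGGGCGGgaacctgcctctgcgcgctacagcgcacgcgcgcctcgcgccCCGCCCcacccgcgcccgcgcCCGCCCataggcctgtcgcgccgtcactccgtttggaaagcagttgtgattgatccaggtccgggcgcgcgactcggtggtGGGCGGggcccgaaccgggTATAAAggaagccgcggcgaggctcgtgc
Rpl13a: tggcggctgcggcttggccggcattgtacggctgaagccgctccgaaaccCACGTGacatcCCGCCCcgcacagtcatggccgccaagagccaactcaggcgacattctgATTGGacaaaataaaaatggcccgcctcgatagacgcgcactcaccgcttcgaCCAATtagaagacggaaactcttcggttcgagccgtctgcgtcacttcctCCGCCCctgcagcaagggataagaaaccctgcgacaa
All 3 windows held the GC box, at 2 places in Tuba1b, 4 in Ppia and 2 in Rpl13a, against 32.7% of 32851 such windows with at least 1 match. The TATA box was found in the Ppia window alone, 29 to 24 bases before the start, and occurs in 12.4% of all windows. Rpl13a held the CCAAT box at 2 places and the E-box at 1, which occur in 33.8% and 6.02% of all windows. The core heat shock element GAANNTTC was not matched in these 3 windows and occurs in 6.69% of all windows, and the window of Hsp90ab1 was not among those searched. G and C made up 75.6% of the Tuba1b window, 72.4% of the Ppia window and 58.8% of the Rpl13a window, against a median of 52.4%. These matches describe the letters and were not tested for any activity.

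Each gene was read by 1 probe printed as 20 spots, scattered from the first rows of the array to the last. Every one of these spots was well above background on every array, and 0 were saturated. The arrays as a whole differed in brightness, with a 75th percentile of 197.8 intensity units on differentiated array 1 and of 247.8 to 270.1 on the others. All levels below are therefore log2 values relative to that percentile of the same array. Equal masses of labelled RNA went onto the arrays per the labels' protocols, so a level is a share of the labelled RNA and not an amount per cell. In such bulk samples, fewer cells that make a transcript and less transcript per cell cannot be told apart. Slide 1 carried the 3 differentiated arrays together with undifferentiated array 3, and slide 2 the other undifferentiated arrays, which were also scanned separately. Differentiated array 1 was scanned apart from the other arrays of its slide.

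After differentiation the mean level of all 5 genes was lower, by 1.18-fold to 1.37-fold, and 0 of the 5 differences passed limma's test at an adjusted p under 0.05. Over all kept probes 13.3% passed, 7.9% being lower and 5.4% higher after differentiation. That balance turned with the slide as a block, where limma called 1293 probes lower and 1911 higher, and with the scan as a block, where 455 were lower and 1061 higher. At an unadjusted p under 0.05 limma called 3 of the 5 (Actb, Tuba1b and Hsp90ab1), against 26.1% of all kept probes. The groups did not overlap for Tuba1b and Ppia, both lower after differentiation, against 19% of all kept probes lower without overlap. In the authors' deposited log2 values the groups of Tuba1b stayed apart and those of Rpl13a came apart, but those of Ppia overlapped. Rpl13a stood there at 13.39 on differentiated array 3 and at 13.42 on undifferentiated array 3. The share of all kept probes without overlap was not computed on those values. In those values Ppia stood at 17.61 on differentiated array 3 and at 17.58 on undifferentiated array 2. A value below 0 was itself common, at 56.2% of all kept probes.

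Actb encodes cytoplasmic beta-actin, the subunit of actin filaments in cells other than muscle. Its level was 5.06, 4.90 and 4.85 on differentiated arrays 1, 2 and 3, and 5.04, 5.51 and 5.57 on undifferentiated arrays 1, 2 and 3. Undifferentiated array 1 lay among the differentiated arrays, just under the highest of them, while the other undifferentiated arrays lay above all of them. The means were 4.94 ± 0.114 and 5.37 ± 0.290 (SD, n = 3 each). The log2 difference was -0.44 with a standard error of 0.174, or 1.35-fold lower (limma, adjusted p = 0.167). Its 95% interval, for this probe taken alone, ran from -0.84 to -0.03, so a fall of up to 1.80-fold lies within it. Actb was the only one of the 5 that passed under any alternative tried, without undifferentiated array 1, at -0.60 (limma, adjusted p = 0.0454). Its adjusted p in limma was between 0.0454 and 0.439 over the 20 alternatives.

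Tuba1b encodes an alpha-tubulin, which pairs with beta-tubulin to form the building block of microtubules. Its level was 9.23, 9.26 and 9.07 on differentiated arrays 1, 2 and 3, and 9.36, 9.56 and 9.66 on undifferentiated arrays 1, 2 and 3. Each differentiated array lay below each undifferentiated one, with undifferentiated array 1 again the nearest. The means were 9.19 ± 0.103 and 9.53 ± 0.154 (SD, n = 3 each). The log2 difference was -0.34 with a standard error of 0.136, or 1.26-fold lower (limma, adjusted p = 0.169), with a 95% interval from -0.66 to -0.02.

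**Figure D1:**
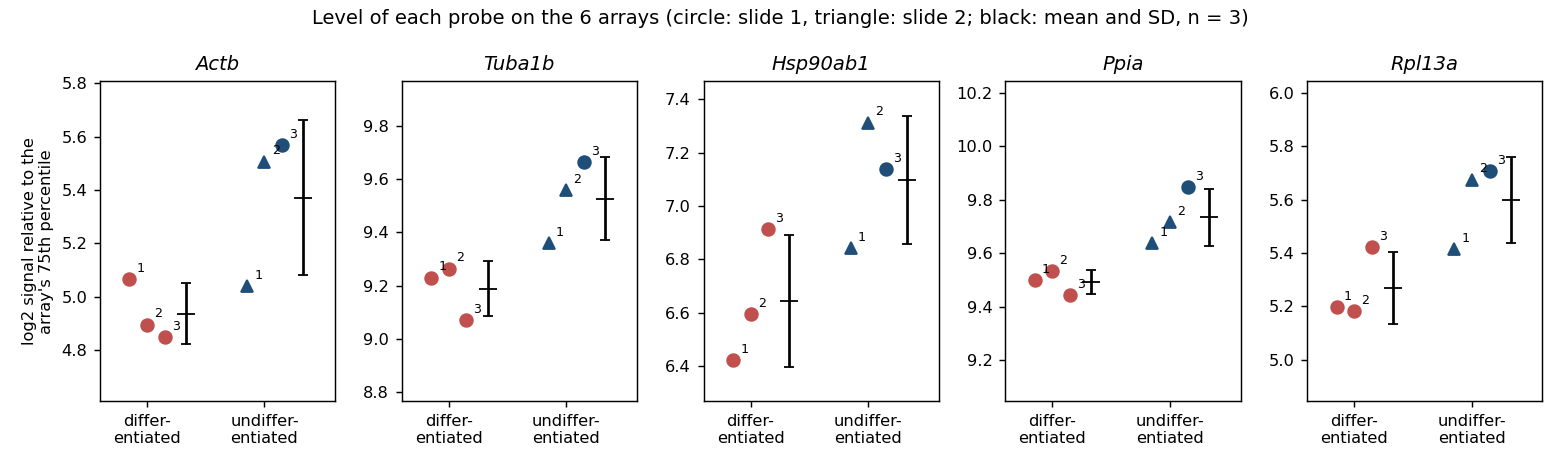
Log2 level of the 5 probes (vertical axis, relative to the array's 75th percentile, each panel spanning the same range of 1.2 units) on the 3 differentiated (red) and 3 undifferentiated (blue) arrays, numbered by replicate, with circles for slide 1 and triangles for slide 2. Black bars give the mean and SD (n = 3). On this scale the groups are apart for Tuba1b and Ppia, and undifferentiated array 1 is the lowest of its group in every panel.

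Hsp90ab1 encodes HSP90 beta, the form of the cytosolic chaperone that cells make constantly. Its level was 6.42, 6.59 and 6.91 on differentiated arrays 1, 2 and 3, and 6.84, 7.31 and 7.14 on undifferentiated arrays 1, 2 and 3. Differentiated array 3 lay above undifferentiated array 1, and differentiated array 1 was the lowest of all. The means were 6.64 ± 0.248 and 7.10 ± 0.238 (SD, n = 3 each). This was the widest spread between differentiated arrays among the 5 genes. The log2 difference was -0.45 with a standard error of 0.185, or 1.37-fold lower (limma, adjusted p = 0.176), with a 95% interval from -0.89 to -0.02.

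Ppia encodes cyclophilin A, the peptidyl-prolyl isomerase that ciclosporin binds. Its level was 9.50, 9.53 and 9.44 on differentiated arrays 1, 2 and 3, and 9.64, 9.72 and 9.85 on undifferentiated arrays 1, 2 and 3. The differentiated arrays lay within 0.09 of each other and all below the undifferentiated ones. The means were 9.49 ± 0.046 and 9.73 ± 0.105 (SD, n = 3 each), the narrowest spread of the 5 genes in both groups. The log2 difference was -0.24 with a standard error of 0.120, or 1.18-fold lower (limma, adjusted p = 0.261). Its 95% interval ran from -0.53 to 0.04, which leaves room for a fall of up to 1.44-fold or a rise of up to 1.03-fold.

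Rpl13a encodes a protein of the large ribosomal subunit. Its level was 5.20, 5.18 and 5.42 on differentiated arrays 1, 2 and 3, and 5.42, 5.67 and 5.71 on undifferentiated arrays 1, 2 and 3. Differentiated array 3 and undifferentiated array 1 met in the middle, and the remaining arrays of the groups lay apart. The means were 5.27 ± 0.135 and 5.60 ± 0.160 (SD, n = 3 each). The log2 difference was -0.33 with a standard error of 0.142, or 1.26-fold lower (limma, adjusted p = 0.196), with a 95% interval from -0.67 to 0.0034.

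The error of reading the spots was small beside the spread between arrays for Actb, Tuba1b, Hsp90ab1 and Rpl13a, and less so for Ppia. The SD of the log2 signal among the spots of 1 probe on 1 array ran from 0.016 to 0.080, and the standard error of their mean was at most 0.019. The largest such standard error on any array was divided by the smaller group SD between arrays, which can come from the other group. It was 4.51% to 11.98% of that SD for those 4 genes, and 41.4% for Ppia. For Ppia the standard error was that of undifferentiated array 3, and the SD that of the differentiated arrays. Within a group the values for Ppia lay further apart. The largest standard error was 0.0096 against an SD of 0.046 in differentiated cells, and 0.019 against 0.105 in undifferentiated cells. The SD between the 3 arrays of a group ran from 0.046 for Ppia in differentiated cells to 0.290 for Actb in undifferentiated cells. Spots above and below the middle row of the array gave nearly the same group difference, at -0.44 and -0.43 for Actb, -0.33 and -0.34 for Tuba1b, and -0.46 and -0.44 for Hsp90ab1. For Ppia these values were -0.25 and -0.23, and for Rpl13a -0.33 and -0.34. Feature Extraction marked 5 to 8 of the 120 spots of each gene as outliers, and these were left out. The spots of a probe share their sample and array and so do not stand for replicates of a condition.

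**Figure D2:**
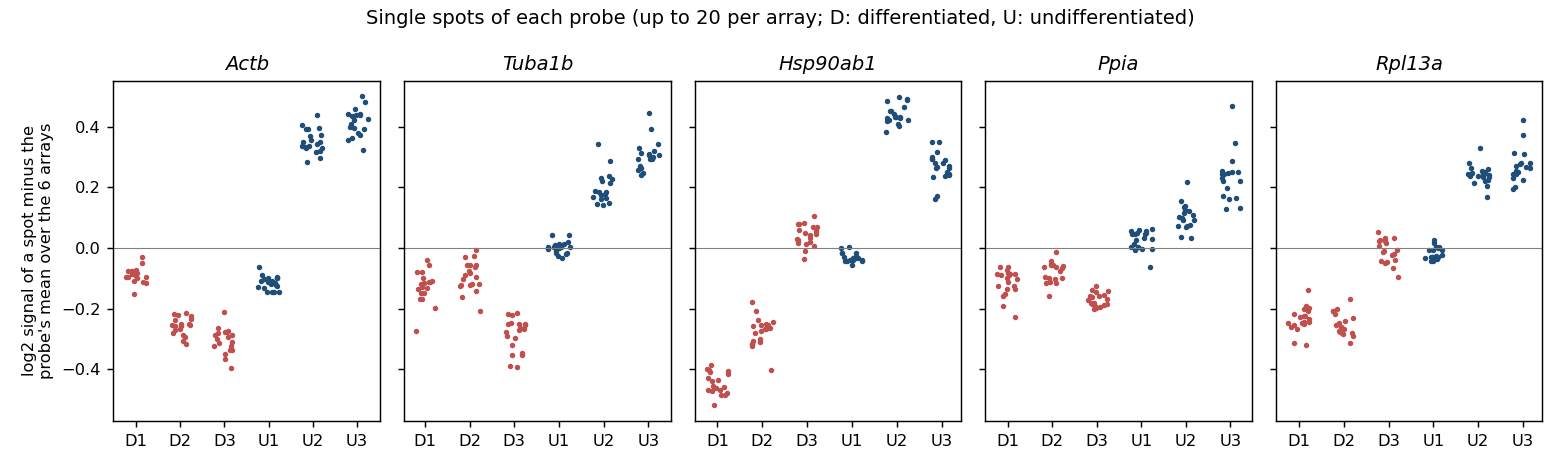
Log2 signal of every spot used of the 5 probes, as its difference from the mean of that probe over the 6 arrays (vertical axis), on differentiated (D, red) and undifferentiated (U, blue) arrays. Spots of 1 array lie close together, with an SD of at most 0.080, and the arrays of a group are spread more widely than that for Actb, Tuba1b, Hsp90ab1 and Rpl13a.

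Relative to the 75th percentile, the comparison of slides changes the sizes and not the direction. Undifferentiated array 3 shared the slide of the differentiated arrays. On that scale it had the highest level of all 6 arrays for Actb, Tuba1b, Ppia and Rpl13a, and the second for Hsp90ab1. In the authors' log2 values it was the highest for none of these genes. There it was the lowest undifferentiated array for Hsp90ab1, at 14.83 against 14.84 and 15.06 on undifferentiated arrays 1 and 2. The same held for Rpl13a, at 13.42 against 13.44 and 13.47. The slide fits below were not run on those values. With the slide as a block, the log2 differences were -0.63 for Actb, -0.47 for Tuba1b, -0.49 for Hsp90ab1, -0.36 for Ppia and -0.44 for Rpl13a (limma, adjusted p from 0.182 to 0.370). They rest on undifferentiated array 3 as the only array of its group on that slide, and the fit within slide 1 alone gave the same differences (limma, adjusted p from 0.150 to 0.346). Within the scan that held both groups, which leaves 2 differentiated arrays and 1 undifferentiated array, the differences ran from -0.70 for Actb to -0.36 for Ppia (limma, adjusted p from 0.299 to 0.668). Both fits borrow the spread of the differentiated arrays for the single undifferentiated one.

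How the arrays were scaled moved the sizes further. Quantile normalization brought the differences to between -0.20 for Tuba1b and -0.08 for Rpl13a (limma, adjusted p from 0.278 to 0.698). The authors' value table, which has near-equal distributions on all arrays, gave -0.23 for Actb, -0.21 for Tuba1b, -0.14 for Hsp90ab1, -0.10 for Ppia and -0.11 for Rpl13a (limma, adjusted p from 0.265 to 0.614). In that table Ppia has the same value, 17.47, on differentiated arrays 1 and 2, whereas the scanner levels there were 9.50 and 9.53. With normexp background correction the differences grew to between -0.49 for Hsp90ab1 and -0.29 for Ppia, and the adjusted p in limma fell to between 0.0527 and 0.0856. Across the 20 alternatives for each of the 5 genes, all 100 values were below 0, but many of them are not separate values. The filters, the intensity trend and the replicate block repeat the reported differences. The shared slide alone and the shared scan alone repeat those of their blocks.

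**Figure D3:**
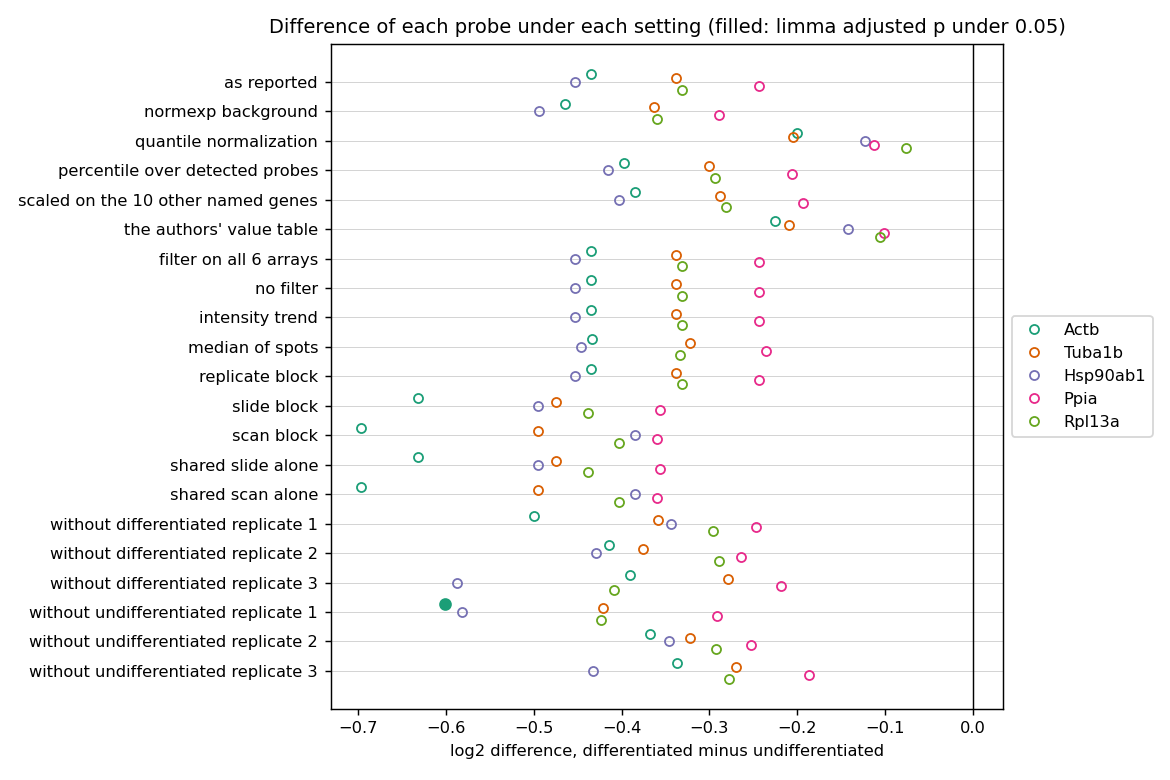
Log2 difference of each gene (horizontal axis, differentiated minus undifferentiated) under the reported fit and the 20 alternatives (vertical axis), with a filled circle where limma's adjusted p was under 0.05. Every point lies left of 0, quantile normalization and the authors' table give the values nearest to it, and the 1 filled circle is Actb without undifferentiated array 1. The filters, the intensity trend and the replicate block repeat the reported differences by design, and the shared slide and shared scan alone repeat those of their blocks.

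The 5 probes are bright, and bright probes in general stood lower after differentiation. All 5 lay in the brightest 10% of the kept probes, and Tuba1b and Ppia in the brightest 1%. Among the other 4178 probes of the brightest 10%, 74.6% had a difference below 0 and the median log2 difference was -0.23, with quartiles at -0.48 and 0.0047. Among the other 416 probes of the brightest 1%, 91.3% were below 0 with a median of -0.22. Over all kept probes the median was -0.05. The kept probes were also cut into classes by rank of mean level, which are not centred on the members. In the class of 734 probes that held Actb and Rpl13a, 30.8% had a lower value than Actb and 41.3% a lower value than Rpl13a. For Hsp90ab1 the corresponding share was 31.5% of 254 probes. Tuba1b and Ppia fell in the class of the brightest 49 probes, Tuba1b at rank 49 as its dimmest. In that class the median difference was -0.07 and the 10th and 90th percentiles were -0.25 and -0.01. There 4.08% of the probes had a lower value than Tuba1b, at -0.34, and 12.2% a lower value than Ppia, at -0.24. The part that brightness has in the members' differences was not tested.

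**Figure D4:**
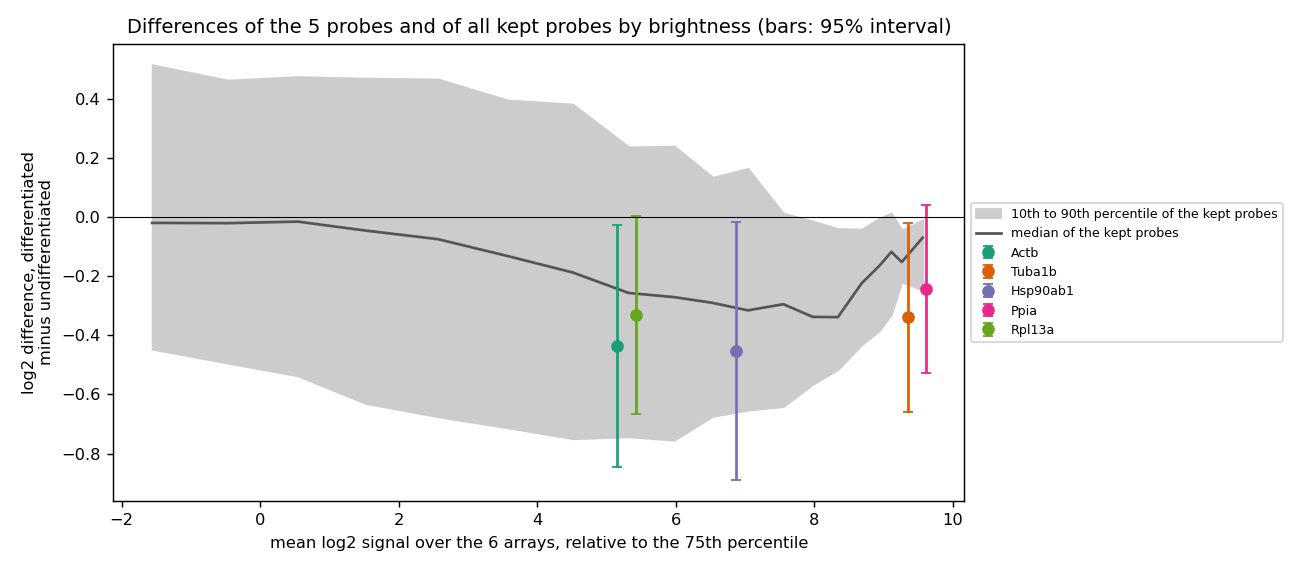
Log2 difference (vertical axis) against the mean log2 level over the 6 arrays (horizontal axis) for the 5 genes, with 95% intervals, over the median (line) and the 10th to 90th percentile (grey) of the kept probes in classes of brightness. Actb, Hsp90ab1 and Rpl13a lie within the grey band, Tuba1b lies below it, in a class whose 10th percentile is -0.25, and Ppia, at -0.24, lies at its bright end.

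Ratios between the genes within an array do not depend on a constant factor applied to that array, such as its 75th percentile, although quantile normalization can move them. They ask whether the 5 genes differed from each other in their change. Of the 10 pairs, 0 had groups without overlap, and exact permutation tests over the 6 arrays gave p from 0.3 to 1 (two-sided, smallest possible 0.1; 0.8 to 1 after Benjamini-Hochberg adjustment over the 10 pairs). In the reported setting the largest change was that of Hsp90ab1 to Ppia. Its log2 ratio was -2.85 ± 0.283 in differentiated and -2.64 ± 0.207 in undifferentiated cells (SD, n = 3 each), a change of -0.21 (exact permutation p = 0.4). Leaving out differentiated array 3 gave -0.37, differentiated array 1 gave -0.10 and undifferentiated array 2 gave -0.09 when left out, and the shared slide and scan alone gave -0.14 and -0.02. The authors' table gave -0.04 and quantile normalization -0.01. For Actb to Ppia the change was -0.19 (exact permutation p = 0.3) and for Tuba1b to Rpl13a it was -0.01 (exact permutation p = 1). With 3 arrays in a group, a p of this size does not show that the genes changed alike. Only the pairs Actb to Ppia, Tuba1b to Ppia and Hsp90ab1 to Ppia kept 1 sign over the 12 alternatives run for ratios. In each case the difference of Ppia was nearer to 0. Ppia, like Tuba1b, is in the class of the brightest 49 probes, where the 10th to 90th percentile of differences was only -0.25 to -0.01. The part that brightness has in these signs was not tested.

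**Figure D5:**
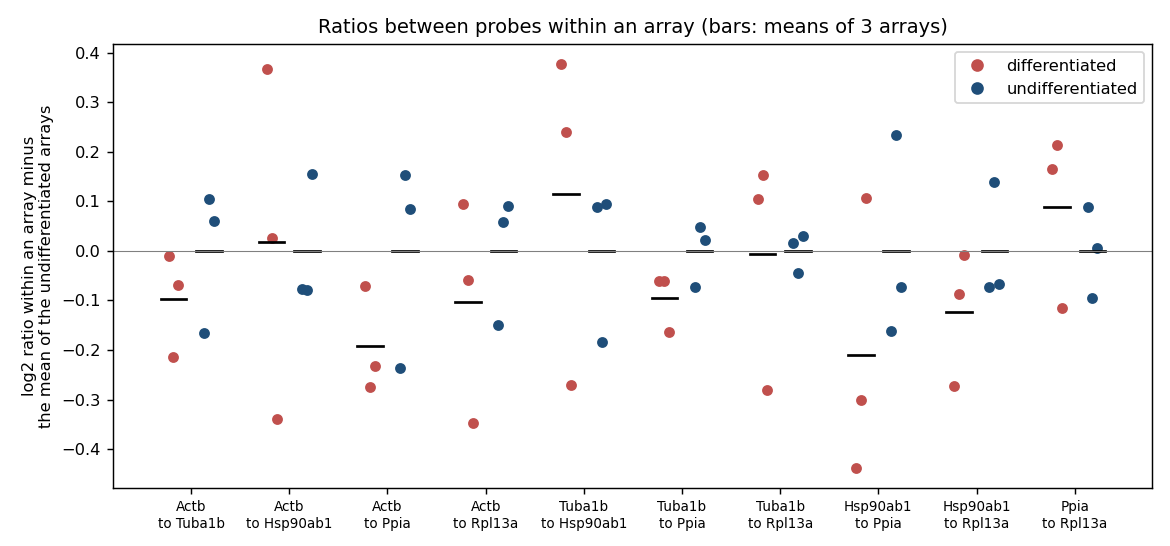
Log2 ratio of 2 members within an array, less the mean of the undifferentiated arrays (vertical axis), for the 10 pairs (horizontal axis), with a point per array and bars at the group means. The groups overlap in all 10 pairs, and the points of Tuba1b to Ppia lie closest together.

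The steadiest pair was Tuba1b with Ppia. The SD of their log2 ratio over the 6 arrays was 0.076, the smallest of the 10 pairs, and the widest was 0.250 for Hsp90ab1 to Ppia. The arrays of that steadiest pair held ratios of -0.27, -0.27 and -0.37 in differentiated and -0.28, -0.16 and -0.19 in undifferentiated cells. Both genes are in the class of the brightest 49 probes, where group differences were narrow in general. Their 10th to 90th percentile there was -0.25 to -0.01, against -0.74 to 0.24 in the class of Actb and Rpl13a. The part that brightness has in the steadiness of this pair was not tested. Among the 15 probes that carry a gene name, the SD of the ratio also showed which patterns were most alike. Nearest to Actb were Tuba1b (0.125) and Rpl13a (0.174), and nearest to Tuba1b were Ppia (0.076) and Actb (0.125). Nearest to Ppia were Tuba1b (0.076) and the glycolytic gene Gapdh (0.099). Hsp90ab1 lay nearest to the transferrin receptor gene Tfrc (0.128) and to Rpl13a (0.132), and Rpl13a to the purine salvage gene Hprt (0.115) and to Tfrc (0.131). These likenesses describe 6 arrays, group differences included, and carry no test.

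Taken over all 14 other named genes, the mean SD of the log2 ratio was 0.211 for Ppia, 0.216 for Rpl13a and 0.235 for Tuba1b. These are ranks 1, 2 and 4 of the 15 from the smallest. The mean SD was 0.281 for Actb and 0.285 for Hsp90ab1, at ranks 10 and 11. The range over all 15 was 0.211 to 0.352. A small value means moving with the other named genes, fellow members included, and not holding a steady level. The SD of the level itself over the 6 arrays was 0.152 for Ppia, 0.219 for Tuba1b and 0.224 for Rpl13a. It was 0.309 for Actb and 0.330 for Hsp90ab1, with a range of 0.074 to 0.351 over all 15. The mean level of the 5 members less that of the 10 other named genes was 3.32, 3.31 and 3.22 on differentiated arrays 1, 2 and 3, and 3.50, 3.64 and 3.64 on undifferentiated arrays 1, 2 and 3. The groups of this difference did not overlap, and single kept probes had groups without overlap, in either direction, in 32.7% of cases. That share is for single probes, and none was computed for means over several probes. The change of this difference was -0.31, made up of -0.36 for the members and -0.05 for the other 10 genes. Those 10 went both ways, 4 of them being below 0. Among them Tfrc, at -0.56 (limma, adjusted p = 0.0652), and Hprt, at -0.53 (adjusted p = 0.0499), had larger differences than any member, while B2m, the class I light chain gene, stood at 0.38 (adjusted p = 0.113). Values below 0 of this size were thus also found outside the 5 members. With quantile normalization the change was -0.25, in the authors' table -0.25, and -0.36 with the slide as a block. No test was made over the members, which were chosen with such values known. The mean level per array was 7.08 to 7.58 for the members and 3.76 to 3.94 for the other 10 genes. The comparison thus also sets brighter against dimmer probes, and the part that brightness has in it was not tested.

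Other genes of the actin, tubulin, HSP90, cyclophilin and ribosomal protein families, and the marker genes of chondrocytes, could not be looked up, since the files pair no other probe with them. The label of the cells was therefore not checked against cartilage genes. Actb, Tuba1b, Hsp90ab1, Ppia and Rpl13a have close relatives or processed copies elsewhere in the mouse genome. How far each probe tells them apart is not known here.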

How the data were processed

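The data are 6 one-colour Agilent arrays, grouped by sample title. Intensity values of single spots were deposited as written by Agilent Feature Extraction 11.0.1.1 (per the submitters' processing notes), background-subtracted within each array and without scaling between arrays. The deposited value table holds the authors' log2 values, by a normalization not given in the sources used here, and served as an alternative.

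Outlier spots (59 to 162 per array) were left out, spots of a probe were averaged on the log2 scale, and the 75th percentile of each array's non-control spots was subtracted. Probes well above background on at least 3 of 6 arrays were kept (68.7%). limma 3.58.1 (R 4.3.3; lmFit and eBayes, no block, two-sided) was fitted to all kept probes with Benjamini-Hochberg adjustment and a threshold of 0.05, and was tested on simulated data. The number of arrays limits the precision. Only 15 probes carry a transcript accession, named through RefSeq. The array's design rests on another genome build, so only the printed start regions have coordinates.

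The members and lists were chosen with earlier results of these data known. The rule for named genes took the 5 members and, for each, the 2 named genes with the smallest SD of the log2 ratio. Alternatives covered background correction (normexp, offset 50, on median signals), scaling, filters, the variance trend, spot summary, blocks by replicate, slide and scan, the shared slide or scan alone, and leaving out each array.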

Additional observations from a re-analysis of the deposited data

How the results depend on the processing

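All 5 differences stayed below 0 under the 20 alternatives, although the filters, the variance trend and the replicate block cannot change them. The shared slide and shared scan alone also repeat the differences of their blocks. Only Actb without undifferentiated array 1 came past the threshold (log2 difference -0.60, limma, adjusted p = 0.0454). Leaving out 1 array at a time gave -0.60 to -0.34 for Actb, -0.42 to -0.27 for Tuba1b, -0.59 to -0.34 for Hsp90ab1, -0.29 to -0.19 for Ppia and -0.42 to -0.28 for Rpl13a, and 0 to 1 members called. The count of changed probes, 5563, was 3204 with the slide block, 1516 with the scan block, 2430 on the shared slide alone (766 lower, 1664 higher), 2347 in the shared scan alone (738 lower, 1609 higher), and 2919 to 5944 without 1 array (leaving out differentiated array 1 gave 3165 and array 2 gave 2919, and leaving out undifferentiated array 2 gave 3068 and array 3 gave 3334). Scaled on the 10 other named genes, the differences ran from -0.40 for Hsp90ab1 to -0.19 for Ppia. Of the 10 ratio changes, 7 took both signs among their alternatives, and 3 of 120 values moved by more than the SD between replicates, all within the shared scan. For these shifts the cause was not tested. Deviations of samples with one number from their group means had correlations of 0.14, -0.087 and 0.034, which gives no clear pairing. Blocking on the replicate number, 3985 probes and 0 members were called (limma, adjusted p of the members from 0.152 to 0.356). The groups had 3 arrays each, and slide was only partly crossed with group. Small differences such as these also moved with the scaling, for Rpl13a from -0.33 as reported to -0.08 with quantile normalization. What limits their detection was not tested.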
